A study of Mus musculus with 4 samples.

Results

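Macrophage transcripts were followed in RNA of mouse spermatogonial stem cells grown in culture, the germline stem cells that sustain sperm production. The 10 genes described are Lyz2, Csf1r, Cd68, Adgre1, Ptprc, Cd14, C1qa, C1qb, C1qc and Tyrobp, chosen by name. The choice was made with earlier results of these data known, so shares of all tested genes are given for scale only. All 10 had a row among the 37653 genes of the FPKM table (fragments scaled to transcript length and library size, a level per length) and among the 55335 genes of the count table. All 10 passed the filter on low counts that left 17262 genes for the test between genotypes. The study compared Tex11PM/Y cells with wild-type (WT) cells, with 2 libraries of each genotype. Tex11 is an X-linked gene needed for crossovers in meiosis, and the labels do not define PM. All cells came from testes of C57/BL6*DBA2 mice at postnatal day 10, were kept in culture with regular passages and were collected on a cell sorter. The labels name neither the surface marker of the sort nor a feeder layer. Nor do they state that libraries of 1 genotype stem from different animals or cultures, and p-values then measure only the spread between these libraries, which may be technical. The Tex11PM/Y libraries share a single column name in the tables and are called libraries A and B here, in column order, without a replicate number.

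Macrophages are phagocytes that descend from blood monocytes or from embryonic precursors and live in most tissues. In the testis they sit in the interstitium and on the outside of the tubules that hold the spermatogonia. Their growth and survival depend on the receptor CSF1R, which binds CSF1 and IL-34.

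Each library held between 19047148 and 19804951 counts. At this depth the limit that a count of 0 allows, 3 counts, was between 0.149 and 0.169 CPM (counts scaled to the normalized library size) in a library. Markers of undifferentiated spermatogonia and germ cells summed to 864, 664, 512 and 652 FPKM in libraries A and B and WT replicates 1 and 2, so germ cell RNA was present in all 4. Tex11 held 22.7 and 9.32 CPM in libraries A and B, against 66.4 and 126 CPM in WT replicates 1 and 2. Fibroblast markers summed to 64.1, 686, 1594 and 500.5 FPKM in libraries A and B and WT replicates 1 and 2.

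Macrophage transcripts summed far higher in 3 of the 4 libraries than in library A, and Lyz2 made up most of each sum. The 10 genes summed to 15.2 and 855 FPKM in libraries A and B, against 391 and 342 FPKM in WT replicates 1 and 2. They took 507 of the counts of library A, or 0.00263% (Wilson 95% interval from 0.00241% to 0.00286%), and 0.131% (from 0.129% to 0.132%) of those of library B. In WT replicates 1 and 2 the shares were 0.0637% (from 0.0625% to 0.0648%) and 0.0548% (from 0.0538% to 0.0558%). These intervals cover counting error only. Libraries A and B thus stood on either side of both WT libraries, with library A far below them. In bulk RNA, fewer macrophages and less of these RNAs per cell cannot be told apart.

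**Figure D1:**
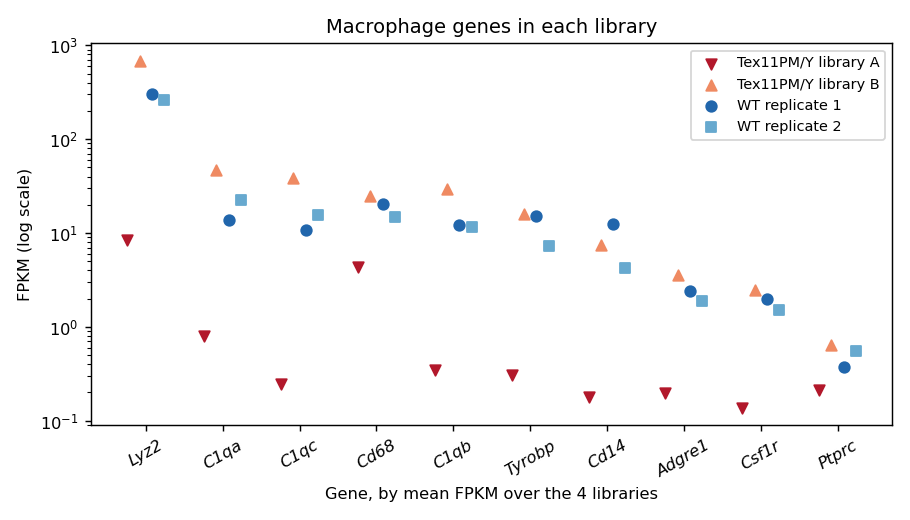
FPKM of each macrophage gene (log scale) in Tex11PM/Y libraries A and B and in WT replicates 1 and 2, 1 point per library and no error bar. Library A is the lowest point for all 10 genes, and library B is the highest for all but Cd14, with Lyz2 at 686 FPKM there.

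Library A was the lowest of the 4 libraries for 10 of the 10 genes, where 34.4% of all tested genes had their lowest value there. By CPM, library B was the highest for 8 of them, where 16.3% of all tested genes had their highest value there, and WT replicate 1 was the highest for Cd14 and Tyrobp. Library A the lowest and library B the highest held together for 8 of the 10 genes and for 7.11% of all tested genes. For 9 of the 10, CPM was over 4-fold higher in library B than in library A, and 5.65% of all tested genes differed that much in that direction, while 0 of the 10 and 2.46% of all tested genes were over 4-fold lower. The exception was Ptprc. The median ratio of library B to library A was 44.6 over the 10 genes and 0.989 over all tested genes. WT replicate 1 was over 4-fold above library A for 9 of the genes, against 8.68% of all tested genes, and WT replicate 2 for 8, against 6.06%. These are comparisons of single libraries, with no replicate check.

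Lyz2 encodes lysozyme M, an antibacterial enzyme made in bulk by macrophages and granulocytes. It held 261 and 21114 counts in libraries A and B, against 9425 and 8246 counts in WT replicates 1 and 2. Its level was 8.45 and 686 FPKM in libraries A and B, against 301 and 262 FPKM in WT replicates 1 and 2. Library A was below both WT libraries and library B above both. Ordered by FPKM, Lyz2 ranked 59 in library B and 6781 in library A, against 144 in WT replicate 1 and 156 in WT replicate 2. Its CPM was 80.0 times as high in library B as in library A (exact 95% interval for counting error from 70.8 to 90.8). Group means were 347 ± 479 FPKM in Tex11PM/Y and 281 ± 27.7 FPKM in WT (SD, n = 2 each), so that the SD of the Tex11PM/Y libraries exceeded their mean. Lyz2 alone made up 55.6% and 80.2% of the summed FPKM of the 10 genes in libraries A and B, and 77.1% and 76.7% in WT replicates 1 and 2.

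Lyz2, ENSMUSG00000069516.8, lies on the minus strand of chromosome 10 from 117277331 to 117282321 in mm10, the build of all positions given, and has a close copy, Lyz1, on the same chromosome. The coding sequences of both are 444 bases long and differ at 22 bases, an identity of 95.0%. Reads that match both copies can be split or dropped in counting, so the first 150 coding bases of each are shown, from GENCODE release M21, with the 14 bases that differ in capitals.
Lyz2: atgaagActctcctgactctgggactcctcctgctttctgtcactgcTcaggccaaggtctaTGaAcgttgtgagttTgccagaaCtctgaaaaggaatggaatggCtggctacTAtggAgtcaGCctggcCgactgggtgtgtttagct
Lyz1: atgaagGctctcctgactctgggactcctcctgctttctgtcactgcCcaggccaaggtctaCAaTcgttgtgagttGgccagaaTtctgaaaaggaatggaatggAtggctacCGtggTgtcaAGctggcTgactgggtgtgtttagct
Lyz1, the lysozyme of Paneth cells in the gut, had 2 and 5 counts in libraries A and B and 1 and 7 counts in WT replicates 1 and 2. The counts assigned to the pair thus lay almost wholly on Lyz2 in every library.

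C1qa, C1qb and C1qc encode the chains of C1q, the recognition part of the first complement component, which macrophages secrete. The 3 genes lie side by side on the minus strand of chromosome 4, C1qb (ENSMUSG00000036905.8) from 136880129 to 136886187, C1qc (ENSMUSG00000036896.5) from 136889804 to 136893065 and C1qa (ENSMUSG00000036887.5) from 136895917 to 136898803. C1qa held 0.804 and 46.9 FPKM in libraries A and B, against 13.7 and 22.3 FPKM in WT replicates 1 and 2. C1qb held 0.347 and 29.6 FPKM in libraries A and B, against 12.2 and 11.7 FPKM in WT replicates 1 and 2. C1qc held 0.248 and 38.4 FPKM in libraries A and B, against 10.8 and 15.7 FPKM in WT replicates 1 and 2. All 3 genes were highest in library B, and in library A they rested on 20, 9 and 8 counts for C1qa, C1qb and C1qc. The ratio of library B to library A in CPM was 56.2 for C1qa (exact 95% interval from 36.2 to 92.4), 81.7 for C1qb (from 42.8 to 179) and 134 for C1qc (from 67.8 to 311). With 8 counts in library A, the interval of C1qc was the widest of the 10 genes in absolute terms.

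The chains did not keep a fixed proportion. C1qa stood at 2.32 and 1.59 times the FPKM of C1qb in libraries A and B, and at 1.13 and 1.91 times in WT replicates 1 and 2. C1qc stood at 0.714 and 1.30 times the FPKM of C1qb in libraries A and B, and at 0.888 and 1.34 times in WT replicates 1 and 2. Library B and WT replicate 2 were close in both ratios, WT replicate 1 was lower, and library A rested on few counts.

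Cd14, a co-receptor for bacterial lipopolysaccharide, had another order of libraries. Tyrobp, a signalling adaptor of myeloid receptors also known as DAP12, had it by CPM only and within counting error. Cd14 held 0.179 and 7.41 FPKM in libraries A and B, against 12.5 and 4.2 FPKM in WT replicates 1 and 2. Tyrobp held 0.311 and 16.1 FPKM in libraries A and B, against 15.2 and 7.23 FPKM in WT replicates 1 and 2. By FPKM, Tyrobp in library B was just above WT replicate 1, but by CPM both genes were highest in WT replicate 1. The ratio of library B to WT replicate 1 in CPM was 0.930 for Tyrobp (exact 95% interval from 0.765 to 1.13). For Cd14 it was 0.512 (from 0.442 to 0.593). They were the 2 genes of the 10 that differed by over 2-fold between the WT libraries, a difference that 23.8% of all tested genes had. WT replicate 2 stood at 0.298 times WT replicate 1 for Cd14 (exact 95% interval for counting error from 0.248 to 0.355) and at 0.433 times for Tyrobp (from 0.337 to 0.552). For C1qa the same ratio was 1.47 (from 1.28 to 1.68). The level of Cd14 was 0.222 and 0.158 times that of C1qa in libraries A and B, against 0.908 and 0.188 times in WT replicates 1 and 2, on FPKM. Cd14 (ENSMUSG00000051439.7) lies on the minus strand of chromosome 18 from 36725067 to 36726798, and Tyrobp (ENSMUSG00000030579.10) on the plus strand of chromosome 7 from 30413788 to 30417577. Library A held 8 counts of Cd14 and 4 of Tyrobp.

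Csf1r, the receptor for the macrophage growth factors CSF1 and IL-34, and Adgre1, which encodes the mouse macrophage antigen F4/80, were alike in level and in profile. Csf1r held 0.137 and 2.44 FPKM in libraries A and B, against 2.01 and 1.52 FPKM in WT replicates 1 and 2. Adgre1 held 0.199 and 3.57 FPKM in libraries A and B, against 2.41 and 1.87 FPKM in WT replicates 1 and 2. Each had 15 counts in library A. Library B stood at 15.3 times library A for Csf1r (exact 95% interval from 9.09 to 27.8) and at 17.7 times for Adgre1 (from 10.5 to 32.0), on CPM. Csf1r (ENSMUSG00000024621.16) lies on the plus strand of chromosome 18 from 61105572 to 61132149, and 873 bases, or 17.9% of its exon length, overlap exons of Hmgxb3 on the other strand. Hmgxb3 held 1955 and 1471 counts in libraries A and B and 1886 and 1442 in WT replicates 1 and 2. The library kit is not stated to keep strand, so reads from the shared bases cannot be told apart. Adgre1 (ENSMUSG00000004730.15) lies on the plus strand of chromosome 17 from 57358691 to 57483527. None of the other 9 genes shared exon bases with another gene of the count table.

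Cd68, a glycoprotein of lysosome membranes, and Ptprc, the CD45 phosphatase of nearly all leukocytes, had the smallest gaps between library A and library B. Cd68 held 4.32 and 24.7 FPKM in libraries A and B, against 20.5 and 14.7 FPKM in WT replicates 1 and 2. Library A thus kept 19.9% of the CPM of library B for Cd68, against 1.25% for Lyz2. In library A, Cd68 was the second gene by level and made up 28.4% of the summed FPKM of the 10 genes, against 2.88% in library B, 5.25% in WT replicate 1 and 4.31% in WT replicate 2. Ptprc held 0.214 and 0.633 FPKM in libraries A and B, against 0.373 and 0.554 FPKM in WT replicates 1 and 2, the lowest level of the 10 genes in library B and in both WT libraries. It rested on 27, 69, 44 and 66 counts in libraries A and B and WT replicates 1 and 2. Library B stood at 2.53 times library A for Ptprc (exact 95% interval from 1.60 to 4.11), below the interval of each of the other genes. Cd68 (ENSMUSG00000018774.13) lies on the minus strand of chromosome 11 from 69664213 to 69666153 and Ptprc (ENSMUSG00000026395.16) on the minus strand of chromosome 1 from 138063407 to 138175306.

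**Figure D2:**
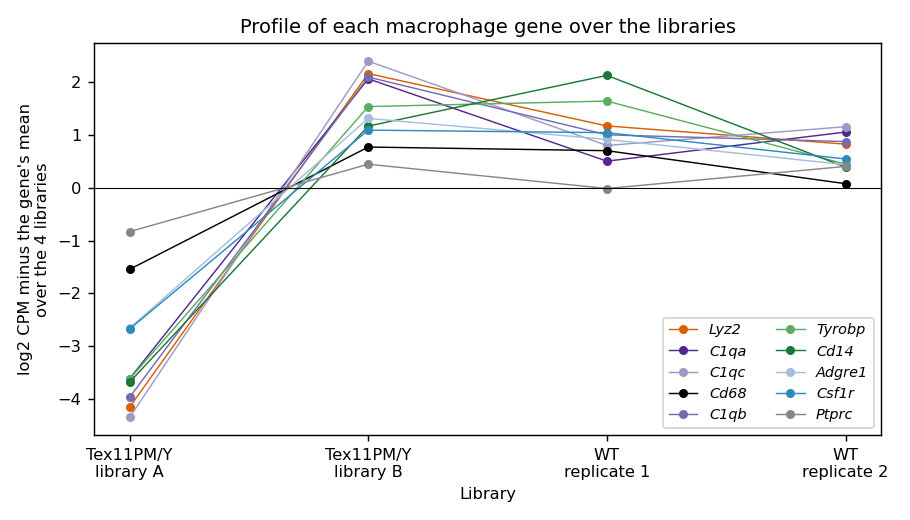
Log2 CPM of each macrophage gene minus its own mean over the 4 libraries, by library. Lines only join the values of a gene. Cd68 and Ptprc lie nearest to 0 in library A. Cd14 and Tyrobp are the genes that peak in WT replicate 1, Tyrobp within counting error of library B.

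Within the libraries the order of the genes by FPKM was similar at its ends. Lyz2 was the highest gene in each of the 4, and Adgre1, Csf1r and Ptprc were the lowest 3 in library B and both WT libraries. The middle of the order changed, with C1qa and C1qc following Lyz2 in library B and WT replicate 2, and Cd68 and Tyrobp in WT replicate 1. A level above 1 FPKM was reached by 2 of the genes in library A, Lyz2 and Cd68, and by 9 in each of the other libraries. By CPM, the levels in library B and WT replicate 1 were within counting error of each other for Csf1r (ratio of library B to WT replicate 1 of 1.03, exact 95% interval from 0.852 to 1.26), Cd68 (1.05, from 0.940 to 1.17), Tyrobp (0.930, from 0.765 to 1.13) and Ptprc (1.39, from 0.939 to 2.08). For Lyz2 this ratio was 1.99 (from 1.94 to 2.04), for C1qc 3.03 (from 2.67 to 3.45) and for Cd14 0.512 (from 0.442 to 0.593).

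Between the genotypes none of the 10 genes passed the test. With edgeR, 0 of 10 had an adjusted p under 0.05, and 0% of all 17262 tested genes did. An unadjusted p under 0.05 was reached by 0 of the 10 and by 2.7% of all tested genes, 1.71% lower and 0.991% higher. DESeq2 called 0 of the 10 as well, and 1 of 33024 genes. Without a filter on low counts edgeR called 0 of the 10, and 50 of 33024 genes, 34 lower (0.103%) and 16 higher. The groups overlapped for each of the 10 genes, since library A lay below and, but for Cd14 and Tyrobp, library B lay above both WT libraries. Across all tested genes the groups did not overlap at 32.4%. The fit was lower in Tex11PM/Y for 6 of the genes and higher for 4, with a median log2 fold change of -0.29 over the 10 and 0.01 over all tested genes. The log2 fold change was 0.17 for Lyz2 (standard error 1.63, edgeR adjusted p = 0.990) and 0.42 for C1qc (standard error 1.71, edgeR adjusted p = 0.974). It was -1.30 for Cd14 (standard error 1.46, edgeR adjusted p = 0.894) and -0.60 for Tyrobp (standard error 1.44, edgeR adjusted p = 0.952). Cd68 had -0.39 (standard error 0.72) and Ptprc -0.28 (standard error 0.73), the smallest errors of the 10. The 4 genes fitted higher, Lyz2, C1qa, C1qb and C1qc, turned lower with limma on log2(FPKM + 1), where Lyz2 had -1.81. That fit averages logarithms, in which the low value of library A weighs more.

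The sign and the call depended on which Tex11PM/Y library was kept. Without library B, which leaves library A alone against the WT pair, all 10 genes were lower. Of these, 7 passed the edgeR threshold, where 2.37% of 18765 tested genes were called lower. They were Lyz2 (log2 fold change -5.22, edgeR adjusted p = 4.84e-05), C1qc (-5.68, adjusted p = 0.00141), C1qa (-4.59, adjusted p = 0.00252), C1qb (-5.22, adjusted p = 0.00286), Cd14 (-5.53, adjusted p = 0.00527), Tyrobp (-5.36, adjusted p = 0.0140) and Csf1r (-3.69, adjusted p = 0.0419). Adgre1 missed it (-3.56, edgeR adjusted p = 0.0544), as did Cd68 (-2.03, edgeR adjusted p = 0.104) and Ptprc (-1.14, edgeR adjusted p = 0.627). Without library A, which leaves library B alone, 9 of the 10 were fitted higher, from 0.24 for Ptprc to 1.41 for C1qc, and Cd14 was at -0.34. None of them passed there, each with an edgeR adjusted p that rounds to 1. In both fits the lone library was assumed to vary like the WT pair.

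**Figure D3:**
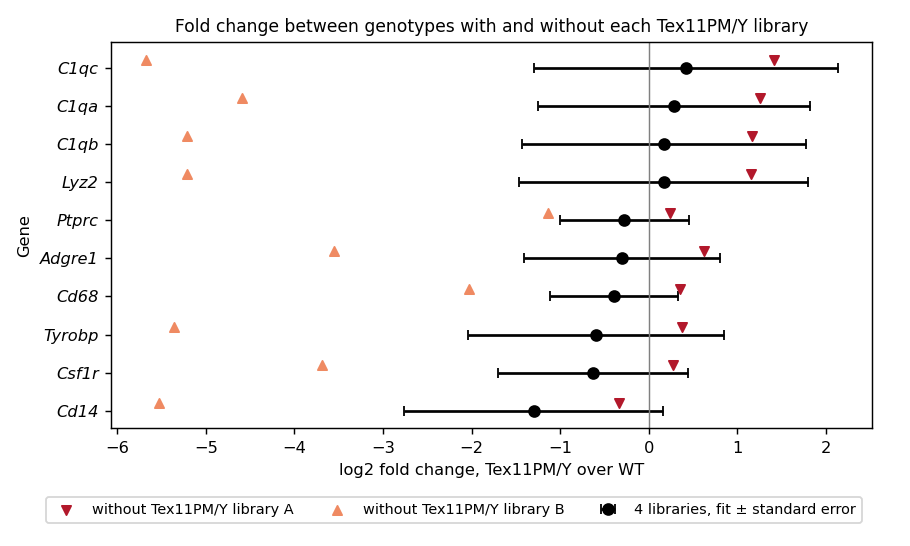
Log2 fold change of Tex11PM/Y over WT for each macrophage gene. Black points with bars are the edgeR fit of all 4 libraries ± its standard error, and triangles are the fits without Tex11PM/Y library A or without library B. Fits without library B are lower for all 10 genes, down to -5.68 for C1qc, and fits without library A are higher for 9.

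The difference between libraries A and B was at the far end of the transcriptome for most of these genes. On log2 CPM with a prior count of 2, the difference of library B minus library A was 6.74 for C1qc, which 7 of the 17262 tested genes exceeded. It was 6.31 for Lyz2, exceeded by 15 genes, 6.06 for C1qb, exceeded by 19, and 5.67 for C1qa, exceeded by 28. Csf1r, at 3.76, was exceeded by 204 genes. Cd68 had 2.31, exceeded by 642 genes, and Ptprc 1.28, exceeded by 1629.

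**Figure D4:**
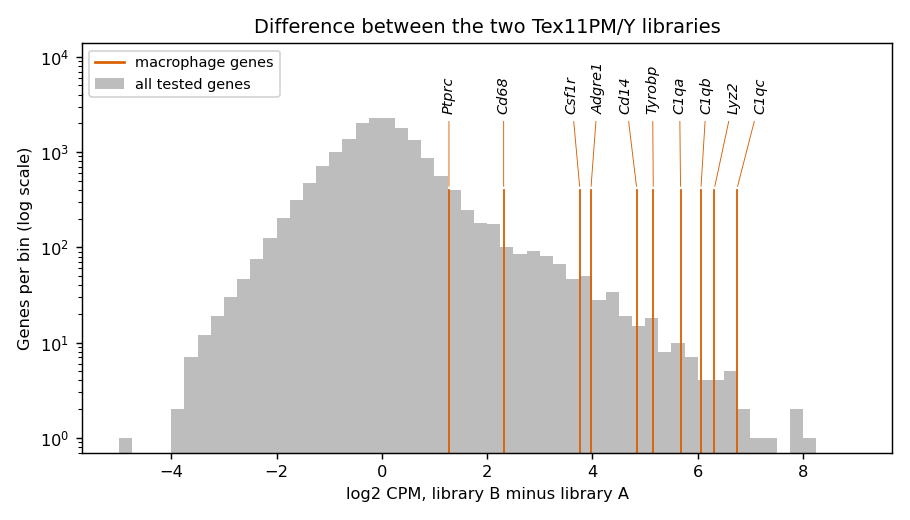
Number of tested genes (log scale) by the difference in log2 CPM of Tex11PM/Y library B minus library A. Orange lines mark the macrophage genes, which all lie above 0, from Ptprc at 1.28 to C1qc at 6.74.

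Promoter sequence was available for 5 of the 10 genes, from RefSeq on GRCm38.p6. It is shown for these because PU.1, encoded by Spi1, is the main transcription factor of macrophage genes and binds purine-rich sites around GAGGAA. Each piece lies upstream of the annotated starts, on the minus strand and written 5′ to 3′. Capitals mark matches, on either strand, to GAGGAA (the PU.1 core), TTGCNNAA (C/EBP) or TGANTCA (AP-1). No matches overlapped.
C1qb, chr4:136886201-136886450: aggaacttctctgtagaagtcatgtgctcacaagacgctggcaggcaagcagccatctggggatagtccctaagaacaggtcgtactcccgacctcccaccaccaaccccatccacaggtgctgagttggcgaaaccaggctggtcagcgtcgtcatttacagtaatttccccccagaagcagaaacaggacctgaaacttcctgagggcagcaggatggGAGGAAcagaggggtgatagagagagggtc
C1qc, chr4:136893066-136893164: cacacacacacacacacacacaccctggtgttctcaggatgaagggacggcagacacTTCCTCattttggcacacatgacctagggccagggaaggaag
Lyz2, chr10:117282322-117282522: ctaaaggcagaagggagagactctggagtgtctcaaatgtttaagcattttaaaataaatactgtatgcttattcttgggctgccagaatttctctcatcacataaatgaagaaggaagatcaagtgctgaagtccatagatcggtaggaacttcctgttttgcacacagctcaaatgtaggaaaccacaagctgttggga
Cd68, chr11:69666171-69666420: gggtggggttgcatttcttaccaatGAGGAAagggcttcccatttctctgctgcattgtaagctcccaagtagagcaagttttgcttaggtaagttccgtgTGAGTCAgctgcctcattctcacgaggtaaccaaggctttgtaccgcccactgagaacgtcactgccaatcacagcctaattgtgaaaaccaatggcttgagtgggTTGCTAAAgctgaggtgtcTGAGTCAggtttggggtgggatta
Ptprc, chr1:138175307-138175555: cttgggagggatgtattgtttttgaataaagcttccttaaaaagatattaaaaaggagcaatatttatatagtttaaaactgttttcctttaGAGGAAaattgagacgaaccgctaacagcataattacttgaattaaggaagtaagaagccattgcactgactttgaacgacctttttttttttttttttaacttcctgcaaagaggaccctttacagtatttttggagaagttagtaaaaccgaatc
The pieces of C1qb, C1qc, Cd68 and Ptprc each held 1 match to GAGGAA, and that of Lyz2 held 0. Relative to the RefSeq start, the match began at -30 in C1qb, -193 in C1qc, -225 in Cd68 and -158 in Ptprc. Of 32851 promoters, GAGGAA was present in 23.3% in a window of 250 bases, in 23.1% for 249, in 18.8% for 201 and in 9.91% for 99, the lengths of these pieces. Cd68 also held 2 matches to TGANTCA, which 6.75% of promoters held in 250 bases, and 1 to TTGCNNAA, which 9.56% held. A match of letters is a description and not a bound site. Lyz2 was the only gene of these without a match, and how matches relate to the levels in library A was not tested.

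Other genes of macrophages and leukocytes were taken from 13 lists by pathway and cell type, none holding the 10 genes. Of their 135 genes, 131 had a row and 93 passed the filter on low counts. With edgeR, 0 of the 93 passed the threshold and 4 had an unadjusted p under 0.05, where 2.7% of all tested genes did. These were Pf4 and Ccl3, fitted lower, and C4b and Zbtb46, fitted higher, named here for the count. The 93 were fitted lower for 71 and higher for 22, where 49% of all tested genes were fitted lower, with a median log2 fold change of -0.51. By CPM, library A was the lowest for 75 of the 93, and 52 were over 4-fold higher in library B than in library A, against the 34.4% and 5.65% of all tested genes given above. Among the edgeR fits with a library left out, genes of these lists were called only without library B, and all of those lower. That fit leaves library A alone against the WT pair. From each list up to 4 genes with the highest mean FPKM are described. All other list genes named were chosen after their values were seen. Counts of lists, such as the lowest library, are by CPM over tested genes.

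The ligands of CSF1R were low in library A along with their receptor. Csf1, the main ligand of CSF1R, held 0.772 and 17.7 FPKM in libraries A and B, against 23.6 and 26.9 FPKM in WT replicates 1 and 2. Il34, the other ligand, held 1 and 16 counts in libraries A and B, against 29 and 24 counts in WT replicates 1 and 2. Csf2rb, the shared receptor chain for GM-CSF and interleukins, held 0.0978 and 3.52 FPKM in libraries A and B, against 1.25 and 1.69 FPKM in WT replicates 1 and 2. The ligand-binding chain Csf2ra lay within the range of the other libraries in library A, with 5.56 and 7.07 FPKM in libraries A and B, against 3.26 and 6.11 FPKM in WT replicates 1 and 2. Of the 4 tested genes, 3 were lowest in library A and 3 were over 4-fold higher in library B. The growth factor genes Csf2 and Csf3, with at most 1 and 9 counts in a library, did not pass the filter. Csf3 was highest in library A.

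Transcription factors of the myeloid lineage were less uniform. Of 8 tested genes, library A was the lowest for 6, and 3 were over 4-fold higher in library B. Cebpb, a C/EBP factor of many cell types, held 10.3 and 36.3 FPKM in libraries A and B, against 36.4 and 38.2 FPKM in WT replicates 1 and 2. Irf8, an interferon regulatory factor of myeloid cells, held 13.01 and 21.4 FPKM in libraries A and B, against 21.8 and 12.9 FPKM in WT replicates 1 and 2. Cebpa, another C/EBP factor, held 7.8 and 14.5 FPKM in libraries A and B, against 12.9 and 19.9 FPKM in WT replicates 1 and 2. The last of the 4, Irf5, was highest in library A, with 5.39 and 4.001 FPKM in libraries A and B, against 3.84 and 3.05 FPKM in WT replicates 1 and 2. Spi1, which encodes PU.1, was lowest in library A and highest in library B like 8 of the macrophage genes, with 0.325 and 3.36 FPKM in libraries A and B, against 2.75 and 1.87 FPKM in WT replicates 1 and 2.

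In the list of Fc receptors, TYROBP partners and their kinases, library A was the lowest for 10 of 12 tested genes, and 7 were over 4-fold higher in library B. Trem2, a lipid receptor that signals through TYROBP, held 0.161 and 7.75 FPKM in libraries A and B, against 8.91 and 5.62 FPKM in WT replicates 1 and 2. Fcgr3, an activating receptor for antibodies, held 0.309 and 12.3 FPKM in libraries A and B, against 5.62 and 8.52 FPKM in WT replicates 1 and 2. Fcer1g, the signalling chain of Fc receptors, held 0.402 and 6.13 FPKM in libraries A and B, against 10.3 and 5.36 FPKM in WT replicates 1 and 2. These 3 were scarce in library A, while Plcg2, a phospholipase of this pathway, was above 10 FPKM in every library, with 14.1 and 22.6 FPKM in libraries A and B, against 24.3 and 17.2 FPKM in WT replicates 1 and 2.

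Of the Toll-like receptors and cofactors, which include the partners of CD14, 8 of 8 tested genes were lowest in library A, and 4 of 8 were over 4-fold higher in library B. Tlr2, a receptor for bacterial lipoproteins, held 2 and 156 counts in libraries A and B, against 147 and 65 counts in WT replicates 1 and 2. Tlr13, a receptor for bacterial RNA in mice, held 8 and 100 counts in libraries A and B, against 69 and 92 counts in WT replicates 1 and 2. Myd88, their shared adaptor, held 2.68 and 6.92 FPKM in libraries A and B, against 6.79 and 6.32 FPKM in WT replicates 1 and 2. The receptor complex for lipopolysaccharide that CD14 serves had no gap beyond counting error between libraries A and B. Ly96, its MD-2 subunit, had a ratio of library B to library A of 1.24 (exact 95% interval from 0.44 to 3.61). Tlr4, its receptor, had a ratio of 1.14 (exact 95% interval from 0.755 to 1.72). Both intervals include 1.

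Genes of the phagocyte oxidase, lysosome and granules were alike in being scarce in library A. Of 11 tested, 11 were lowest in library A, and 10 were over 4-fold higher in library B than in library A. Gpnmb, a membrane glycoprotein of lysosomes, held 2.63 and 64.2 FPKM in libraries A and B, against 47.7 and 30.6 FPKM in WT replicates 1 and 2. Lgals3, the lectin galectin-3, held 2.98 and 44.0 FPKM in libraries A and B, against 30.3 and 31.6 FPKM in WT replicates 1 and 2. All libraries but A were above 30 FPKM for both. Cyba, a subunit of the phagocyte oxidase, held 3.51 and 29.9 FPKM in libraries A and B, against 41.3 and 22.0 FPKM in WT replicates 1 and 2. Ctss, the lysosomal protease cathepsin S, held 1.00 and 28.1 FPKM in libraries A and B, against 19.6 and 13.7 FPKM in WT replicates 1 and 2.

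Of the genes of most leukocytes, library A was the lowest for 9 of 11 tested, and 4 were over 4-fold higher in library B. Laptm5, a lysosomal protein of blood cells, held 0.321 and 18.3 FPKM in libraries A and B, against 18.9 and 9.01 FPKM in WT replicates 1 and 2. Cd53, a tetraspanin of leukocytes, held 0.168 and 3.73 FPKM in libraries A and B, against 3.83 and 3.38 FPKM in WT replicates 1 and 2. Lcp1, an actin-bundling protein, held 1.27 and 6.07 FPKM in libraries A and B, against 3.8 and 5.59 FPKM in WT replicates 1 and 2. Library A was the lowest for these 3. Coro1a, an actin-binding protein, was lowest in WT replicate 1, with 6.18 and 8.85 FPKM in libraries A and B, against 3.53 and 6.31 FPKM in WT replicates 1 and 2.

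Among the other complement genes the order of libraries varied. Of 13 tested, library A was the lowest for 11, and 9 were over 4-fold higher in library B. Serping1, the inhibitor of the C1 proteases, held 1.44 and 14.7 FPKM in libraries A and B, against 21.0 and 16.2 FPKM in WT replicates 1 and 2. Itgb2, a chain of the complement receptors on leukocytes, held 0.367 and 4.84 FPKM in libraries A and B, against 3.7 and 2.32 FPKM in WT replicates 1 and 2. C3, the central complement component, held 1.69 and 3.95 FPKM in libraries A and B, against 2.95 and 2.6 FPKM in WT replicates 1 and 2. Library A was the lowest for these 3, while Cfp, which encodes properdin, was highest there, with 9.47 and 6.02 FPKM in libraries A and B, against 1.98 and 4.91 FPKM in WT replicates 1 and 2. C1s1, the C1s protease of the first complement component, held 0.213 and 1.75 FPKM in libraries A and B, against 7.39 and 1.7 FPKM in WT replicates 1 and 2. Its peak was in WT replicate 1. Fibroblast markers peaked by sum in that library as well, and their part in this was not tested.

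Genes that mark resident or monocyte-derived macrophages had no common order. Of 6 tested, library A was the lowest for 4, and 3 were over 4-fold higher in library B than in library A. WT replicate 1 was the highest for 3 and library B for 2. Ms4a7, a membrane protein of macrophages, held 0.186 and 5.1 FPKM in libraries A and B, against 5.83 and 3.58 FPKM in WT replicates 1 and 2. Mrc1, the mannose receptor CD206, held 0.475 and 8.86 FPKM in libraries A and B, against 1.11 and 4.05 FPKM in WT replicates 1 and 2. Ms4a7 was highest in WT replicate 1, and Mrc1 was higher in library B and WT replicate 2 than there. Lyve1, a hyaluronan receptor of some resident macrophages and of lymph vessels, held 2.19 and 3.76 FPKM in libraries A and B, against 1.8 and 3.86 FPKM in WT replicates 1 and 2. Pf4, the chemokine platelet factor 4, held 3 and 11 counts in libraries A and B, against 40 and 23 counts in WT replicates 1 and 2. Siglec1, which encodes the sialic acid receptor CD169, had the order of Mrc1, with 6 and 187 counts in libraries A and B, against 39 and 87 counts in WT replicates 1 and 2. The monocyte genes Ccr2 and Ly6c2 had at most 1 count in any library, and Timd4 had 0 counts in every library.

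Cytokine genes peaked in different libraries. Of 11 tested, library A was the lowest for 9, and 8 were over 4-fold higher in library B. Library B was the highest for 4, WT replicate 1 for 4 and WT replicate 2 for 3. Spp1, which encodes osteopontin, held 18.4 and 152 FPKM in libraries A and B, against 31.6 and 133 FPKM in WT replicates 1 and 2. The monocyte chemokine gene Ccl2 held 0.162 and 49.3 FPKM in libraries A and B, against 24.9 and 62.4 FPKM in WT replicates 1 and 2. The chemokine gene Ccl6 held 0.196 and 67.9 FPKM in libraries A and B, against 4.82 and 30.5 FPKM in WT replicates 1 and 2. These 3 were higher in library B and WT replicate 2 than in WT replicate 1. The neutrophil chemokine gene Cxcl2 was highest in WT replicate 1, with 0.0259 and 3.71 FPKM in libraries A and B, against 21.5 and 4.48 FPKM in WT replicates 1 and 2. Il1b, which encodes interleukin-1 beta, also peaked there, with 4 and 13 counts in libraries A and B, against 139 and 3 counts in WT replicates 1 and 2. The interleukin gene Il6 did not, with 1 and 66 counts in libraries A and B, against 26 and 76 counts in WT replicates 1 and 2.

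Among MHC class II genes, which present antigen, library A was the lowest for 1 of 4 tested, and 0 were over 4-fold higher in library B. Cd74, the class II chaperone, held 2.58 and 8.89 FPKM in libraries A and B, against 2.06 and 8.56 FPKM in WT replicates 1 and 2. H2-Ab1, a class II chain, held 0.578 and 1.28 FPKM in libraries A and B, against 5.00 and 1.27 FPKM in WT replicates 1 and 2. Cd74 was lowest in WT replicate 1 and H2-Ab1 highest there. H2-DMa, a chain of the peptide-loading protein, held 4.02 and 4.12 FPKM in libraries A and B, against 7.96 and 5.95 FPKM in WT replicates 1 and 2. H2-DMb1, the other chain, held 7 and 8 counts in libraries A and B, against 36 and 7 counts in WT replicates 1 and 2 and did not pass the filter on low counts.

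Markers of lymphocytes were low, and library A was the lowest for 3 of 3 tested. Lck, a kinase of T cells, held 50 and 131 counts in libraries A and B, against 93 and 171 counts in WT replicates 1 and 2. Cd79a, a chain of the B cell receptor complex, held 11 and 66 counts in libraries A and B, against 37 and 32 counts in WT replicates 1 and 2. Of the T cell receptor chains, Cd3g held 6 and 8 counts in libraries A and B, against 21 and 12 counts in WT replicates 1 and 2. Cd3e had at most 10 counts in any library and did not pass the filter. Of the dendritic cell genes, Zbtb46, a transcription factor, held 7.92 and 8.8 FPKM in libraries A and B, against 4.15 and 5.22 FPKM in WT replicates 1 and 2 (edgeR adjusted p = 0.884). Flt3, a growth factor receptor of progenitors and dendritic cells, was highest in library A, with 71 and 46 counts in libraries A and B, against 16 and 43 counts in WT replicates 1 and 2. Clec9a and Xcr1 had at most 3 counts in any library. No gene of neutrophils and mast cells passed the filter, and the highest of them, S100a8 and Mpo, had at most 11 counts in a library. Ly6g, Tpsb2, Cd209a and Siglech had 0 counts in every library, which allows up to 0.169 CPM.

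**Figure D5:**
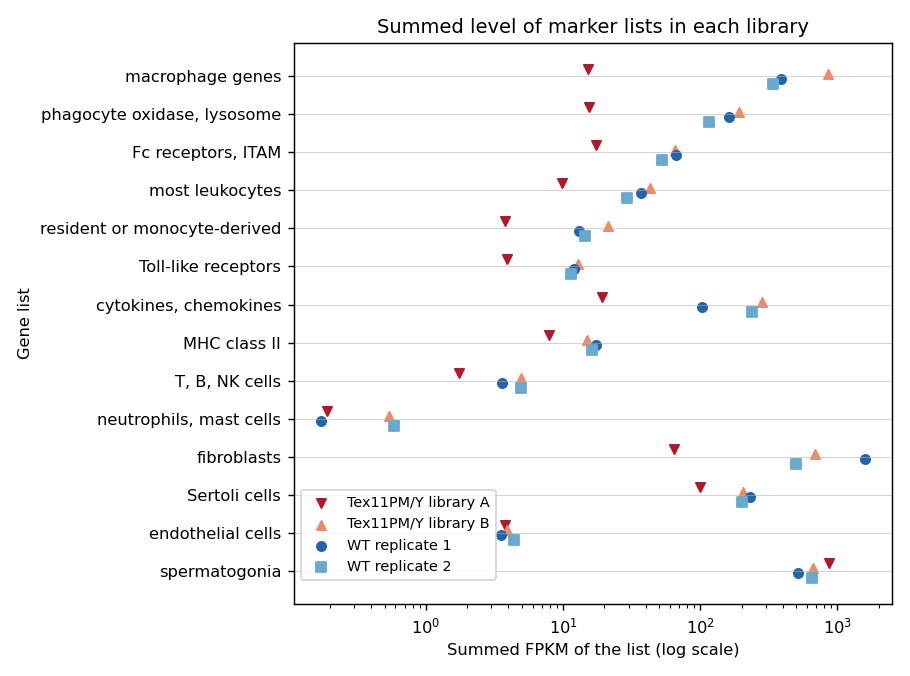
Summed FPKM (log scale) of 14 gene lists in Tex11PM/Y libraries A and B and WT replicates 1 and 2, 1 point per library. Library A is the lowest for the 10 macrophage genes, at 15.2 FPKM, and for fibroblasts and Sertoli cells, among other lists. It is the highest for spermatogonia, at 864 FPKM.

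The markers of other testis cells did not share the full order of the macrophage genes, but fibroblast markers shared their low values in library A. By CPM, fibroblast markers were lowest in library A for 10 of 10 genes, and 9 were over 4-fold higher in library B. The counts were the same for the 10 macrophage genes, against 34.4% and 5.65% of all tested genes. Fibroblast markers were highest in WT replicate 1 for 10 of 10, while 8 of the macrophage genes were highest in library B. For Csf1r, Cd68 and Ptprc among these 8, the lead of library B over a WT library was within counting error. By FPKM, Dcn and Lum, named for this exception, were slightly higher in library B than in WT replicate 1. Dcn, a matrix proteoglycan, held 0.924 and 58.2 FPKM in libraries A and B, against 56.0 and 47.1 FPKM in WT replicates 1 and 2. Col1a1, a fibrillar collagen, held 14.4 and 224 FPKM in libraries A and B, against 606 and 141 FPKM in WT replicates 1 and 2. Col1a1 was lower in library B than in WT replicate 1, while Lyz2 was higher there. Myoid genes were lowest in library A for 3 of 5 tested, Sertoli cell genes for 3 of 5 and endothelial genes for 1 of 5. By sum, myoid genes held 3.22 and 23.4 FPKM in libraries A and B, against 115 and 24.6 FPKM in WT replicates 1 and 2. Sertoli cell genes held 99.1 and 204 FPKM in libraries A and B, against 232 and 200 FPKM in WT replicates 1 and 2. The sum of endothelial genes was lowest in WT replicate 1. Markers of spermatogonia were highest in library A for 5 of 10. How far the share of other cells in a library sets the levels of the macrophage genes was not tested.

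The genes outside these lists whose profile was most like the macrophage genes included genes of macrophages and of connective tissue. Likeness was the root mean square distance, in log2 CPM over the 4 libraries, to the median profile of the 10 genes, each centred on its own mean. The nearest 8 named protein-coding genes were Avpr1a at 0.23, Ifi205 at 0.31, Wnt5a, Cd5l and Dpt at 0.35 each, Egfl6 and Gda at 0.37 each and P2ry6 at 0.38. Tyrobp lay at 0.35 on the same scale, Lyz2 at 0.50, Cd68 at 1.11 and Ptprc at 1.56. Cd5l, a secreted protein of tissue macrophages, held 0.221 and 11.4 FPKM in libraries A and B, against 5.45 and 3.23 FPKM in WT replicates 1 and 2. P2ry6, a receptor for extracellular nucleotides, held 0.0492 and 1.68 FPKM in libraries A and B, against 1.78 and 1.12 FPKM in WT replicates 1 and 2. Dpt, an extracellular matrix protein of connective tissue, held 0.528 and 18.7 FPKM in libraries A and B, against 8.33 and 12.0 FPKM in WT replicates 1 and 2. Avpr1a, a vasopressin receptor, held 0.0266 and 1.71 FPKM in libraries A and B and 1.03 FPKM in each WT library. With 4 libraries, likeness describes these samples only.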

How the data were processed

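Poly(A) RNA of 4 libraries was sequenced, 2 of Tex11PM/Y and 2 of WT. Among the tools in the submitters' processing notes are StringTie, featureCounts, STAR, fastp and DESeq2. The build there is mm10, with no versions stated. Per the file headers, the authors deposited whole-number read counts, not normalized, and tables of FPKM and of TPM values (transcript shares scaled to a fixed total). The chi-square over degrees of freedom between replicates was 111 for Tex11PM/Y and 104 for WT, so none is a repeat deposit.

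The main test was edgeR's (4.0.16, in R 4.3.3) quasi-likelihood test on genotype, robust, after filterByExpr and TMM scaling. Its p-values were adjusted by Benjamini-Hochberg over all genes tested and called under 0.05. CPM values used TMM library sizes. The standard error of a fold change came from the F statistic. Alternatives were limma 3.58.1 on FPKM and TPM values, DESeq2 1.42.0, other scalings and filters, and each library left out. The smallest two-sided permutation p of this design is 0.333. The 10 genes and all lists were chosen with earlier results of these data known. Named genes were the 10, Tex11, up to 4 genes of a list by mean FPKM and the 8 nearest in profile, and other names are said to be chosen after their values were seen or are named for a count.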

Additional observations from a re-analysis of the deposited data

How the results depend on the processing

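No paired analysis was possible because both Tex11PM/Y columns carry the same replicate number, so the libraries of the genotypes cannot be paired. Among all genes, edgeR called 0, DESeq2 called 1, and edgeR without a filter on low counts called 50. Leaving out each library gave 0 to 518 calls, with 518 without Tex11PM/Y library B. The count among the 10 macrophage genes was 0 in each of the other settings and 0 to 7 with a library left out, with 7 without library B. Among the other macrophage and leukocyte genes it was 0, but 1 without a filter on low counts, and 0 to 26 with a library left out. With limma on log2(FPKM + 1), the log2 fold changes that turned lower were -1.81 for Lyz2, -0.996 for C1qa, -1.01 for C1qb and -1.002 for C1qc. With limma on log2(FPKM + 0.1), the log2 fold changes that turned lower were -1.87 for Lyz2, -1.43 for C1qa, -1.72 for C1qb and -1.84 for C1qc. With limma on log2(TPM + 1), the log2 fold changes that turned lower were -1.74 for Lyz2, -1.17 for C1qa, -1.34 for C1qb and -1.39 for C1qc. With a library left out, log2 fold changes ranged from -5.22 to 1.15 for Lyz2, from -4.59 to 1.26 for C1qa, from -5.22 to 1.16 for C1qb, from -5.68 to 1.41 for C1qc, from -5.36 to 0.38 for Tyrobp. The same ranges were from -5.53 to -0.18 for Cd14, from -3.69 to 0.28 for Csf1r, from -3.56 to 0.63 for Adgre1, from -2.03 to 0.35 for Cd68, from -1.14 to 0.24 for Ptprc. The lowest value of each range was the fit without library B, and the highest the fit without library A for 9 genes, but for Cd14 the fit without WT replicate 1. With a WT library left out, Tyrobp ranged from -1.08 to 0.13. Other scalings and filters of the counts kept the sign of all 10. In library A the 10 genes rest on 4 to 261 counts, which limits every ratio to it.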
